A study of Mus musculus with 7 samples.

Results

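Basement membranes are thin sheets that underlie endothelium and epithelium and wrap muscle fibers, nerve sheath cells and fat cells. Their scaffold is a network of type IV collagen, tied to laminins by nidogens and by the heparan sulfate proteoglycans perlecan and agrin. Type VI collagen forms beaded microfibrils, which in cartilage lie in the pericellular matrix around chondrocytes. Collagens XII and XIV are FACITs, fibril-associated collagens with interrupted triple helices, which sit on the surface of collagen fibrils. Collagens XV and XVIII are the multiplexins of the basement membrane zone, and endostatin is cut from the end of the type XVIII chain.

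The 9 collagen genes described here are Col4a1, Col4a2, Col6a1, Col6a2, Col6a3, Col12a1, Col14a1, Col15a1 and Col18a1, chosen by symbol among the 43346 genes of the deposited allele counts. They were measured by RNA-seq in tibial growth plates, proximal and distal, of 7 male F1 mice from a cross between C57BL/6J (B6) and CAST/EiJ (CAST), aged 21 d. There was a single condition, with no treatment, and mice carry the numbers 1, 2, 3, 4, 5, 7 and 8 of the labels. F1 animals inherit 1 copy of each autosomal gene from either parental strain, and the comparison within a mouse asks whether the copies yield unequal amounts of RNA, with both copies in the same cells. Which strain was the mother is not given in the labels. Males take their X chromosome from the mother, and the X-linked type IV genes Col4a5 and Col4a6 had more B6 counts in 7 of 7 mice, as they would with a B6 mother. With the cross in a single direction, strain and parent of origin cannot be told apart.

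Each mouse had 14098019 to 37849667 estimated counts, with a median of 27603769. These totals are above the average number of read pairs that the labels give, and the files do not say whether read ends or lanes were added up. A fragment may therefore be counted more than once, and intervals based on counts may be too narrow. Reads that match both alleles are shared out in these counts. How many reads of a gene tell its alleles apart is not given. An even split is thus a split of estimated counts, and equal amounts of RNA were not tested apart from a lack of such reads. Among autosomal genes 49.5% ± 0.128 (SD, n = 7) of counts came from the B6 allele. The 9 genes held 0.990% ± 0.115 (SD, n = 7) of all counts and 5.22% ± 0.398 (SD, n = 7) of the counts of 44 collagen chain genes. The labels call the tissue growth plate chondrocyte, and all 8 of 8 chondrocyte markers were above 0 in every mouse, with a summed level of 54945 to 91491 CPM (counts scaled to a total of 1000000 per mouse). Osteoblast markers summed to 36036 to 65390 CPM, skeletal muscle markers to 3415 to 7004 CPM, erythroid markers to 3899 to 9417 CPM and endothelial markers to 329 to 461 CPM, and no gene of these lists was at 0 in every mouse. Markers of several cell types besides chondrocytes were thus present, and in bulk tissue more cells of a type and more RNA per cell cannot be told apart.

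Of the 9 genes, 4 differed between alleles at a false discovery rate (FDR) under 0.20 when 20229 genes were compared with edgeR (likelihood-ratio test), and in all 4 the CAST allele was higher. These were Col4a1, Col6a1, Col6a2 and Col14a1. Over all tested genes 34.6% were called, 16.3% with CAST higher, and among genes with a mean total of at least 1000 counts, as each of the 9 had, 30.3% were called. The 4 of 9 lie near that share, and nothing particular to these collagens is read from the count. The same allele was higher in all 7 mice for 6 of the 9 genes, beside 24.6% of all tested genes. With the mouse as a block, which pairs the alleles of each animal, 7 of the 9 genes were called, beside 45.5% of all tested genes. The 24.6% and 45.5% cover genes of any depth. Neither share was computed for genes with at least 1000 counts, so no excess over them is read here or below. The added genes were Col15a1 and Col18a1, with B6 higher, and Col6a3, with a log2 fold change of only 0.02 that changed sign with a single library size per mouse.

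**Figure D1:**
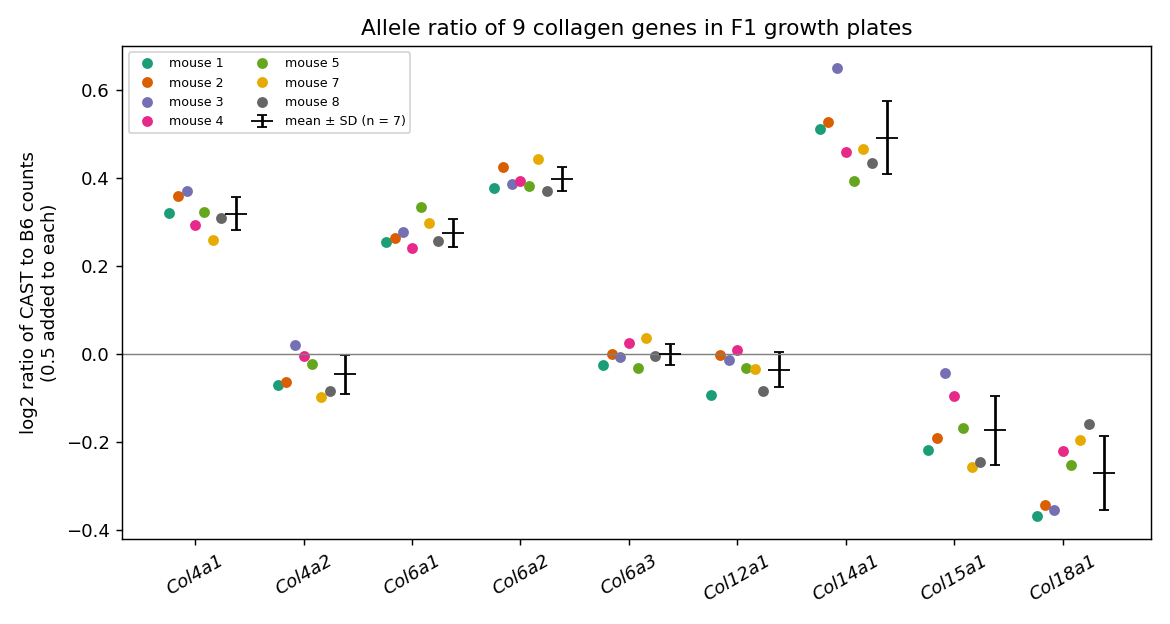
The log2 of CAST over B6 counts, after adding 0.5 to both, is plotted for the 9 collagen genes, with a colored point for each of the 7 mice and a black bar for the mean ± SD. Col4a1, Col6a1, Col6a2 and Col14a1 lie above 0 in every mouse, Col15a1 and Col18a1 below 0 in every mouse, and Col4a2, Col6a3 and Col12a1 scatter around 0 or just under it.

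Type IV collagen of most basement membranes is a heterotrimer with more α1 than α2 chains, encoded by Col4a1 and Col4a2. Col4a1 (ENSMUSG00000031502) lies on the minus strand of chromosome 8 at 11198423 to 11312826 (GRCm38/mm10), and Col4a2 (ENSMUSG00000031503) on the plus strand at 11312805 to 11449287. The genes run away from each other, and their 5′ ends overlap by 22 bases. This stretch is shown because it lies between the start sites of genes whose counts were split differently between alleles. It reads, 5′ to 3′ on the strand of Col4a2 at chr8:11312805-11312826 (RefSeq, GRCm38.p6), with the GC box GGGCGG in capitals:
Col4a1 and Col4a2: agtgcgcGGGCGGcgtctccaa
The GC box, searched as GGGCGG and its reverse complement CCGCCC, was found in 35.7% of 32851 RefSeq promoter windows of 250 bases before to 50 bases after a start. The match is a description of the letters and was not tested as a binding site.

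Col4a1 had more counts from the CAST allele in all 7 mice, while the counts of Col4a2 were close to an even split. For Col4a1 the CAST share was 55.5%, 56.2%, 56.4%, 55.0%, 55.6%, 54.5% and 55.3% in mice 1, 2, 3, 4, 5, 7 and 8. The share for Col4a2 in the same order was 48.8%, 48.9%, 50.3%, 49.9%, 49.6%, 48.3% and 48.5%. No Col4a1 value overlapped a Col4a2 value, although the total counts were large for both genes, 11488 to 33392 for Col4a1 and 7316 to 21654 for Col4a2.

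The log2 fold change of Col4a1 was 0.34 with CAST higher (edgeR, FDR 0.0241), and the mean log2 ratio over mice was 0.32 ± 0.038 (SD, n = 7, exact permutation test that flips the sign of each mouse's ratio, two-sided, p = 0.0156, 95% interval 0.28 to 0.36). This p is the smallest that 7 mice can give. Col4a2 had a log2 fold change of -0.02 (edgeR, FDR 0.988), and its mean log2 ratio was -0.05 ± 0.044 (SD, n = 7), with more B6 counts in 6 of 7 mice (exact sign-flip test, p = 0.0469). The difference between both chains was tested within mice. Col4a1 exceeded Col4a2 in its log2 CAST to B6 ratio by 0.37 ± 0.041 (SD, n = 7), in 7 of 7 mice (exact sign-flip test, p = 0.0156, Benjamini-Hochberg adjusted over 6 pairs 0.0188).

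Type VI collagen is assembled from α1, α2 and α3 chains, and the α3 chain is by far the longest. Col6a1 (ENSMUSG00000001119) lies at 76708792 to 76726168 and Col6a2 (ENSMUSG00000020241) at 76595762 to 76623630 on the minus strand of chromosome 10 (GRCm38/mm10), 85161 bases apart. Col6a3 (ENSMUSG00000048126) is on the minus strand of chromosome 1 at 90765923 to 90843971. The bases just before the annotated starts are shown because these chains make up a single trimer and their levels were compared between mice. They are from RefSeq (GRCm38.p6), minus strand, 5′ to 3′, at chr10:76726169-76726294, chr10:76623631-76623880 and chr1:90843972-90844221, with any GC box (GGGCGG or CCGCCC) in capitals:
Col6a1: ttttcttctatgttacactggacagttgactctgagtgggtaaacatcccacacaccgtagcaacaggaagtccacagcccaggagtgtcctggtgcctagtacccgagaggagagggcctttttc
Col6a2: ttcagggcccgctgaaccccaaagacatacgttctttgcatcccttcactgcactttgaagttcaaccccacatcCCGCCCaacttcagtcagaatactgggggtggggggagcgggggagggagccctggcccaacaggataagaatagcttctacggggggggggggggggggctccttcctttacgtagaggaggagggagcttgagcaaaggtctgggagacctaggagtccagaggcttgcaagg
Col6a3: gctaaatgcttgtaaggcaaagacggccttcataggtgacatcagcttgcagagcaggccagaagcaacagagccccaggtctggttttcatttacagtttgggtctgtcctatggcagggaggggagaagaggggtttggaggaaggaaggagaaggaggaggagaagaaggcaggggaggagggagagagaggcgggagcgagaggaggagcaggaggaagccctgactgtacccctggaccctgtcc
In these stretches only Col6a2 held a GC box. Neither the CCAAT box (CCAAT or ATTGG, in 37.4% of all windows) nor TATAAA (or TTTATA, in 13.6%) was found in the promoter windows of the type VI genes, which says only that these letters are not in those windows.

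Col6a1 and Col6a2, the neighbors on chromosome 10, both had more CAST counts, and the counts of Col6a3 on chromosome 1 were split evenly. The CAST share of Col6a1 was 54.4%, 54.6%, 54.8%, 54.2%, 55.8%, 55.2% and 54.4% in mice 1, 2, 3, 4, 5, 7 and 8. For Col6a2 it was 56.5%, 57.3%, 56.7%, 56.8%, 56.6%, 57.6% and 56.4%, above Col6a1 in each mouse. Col6a3 gave 49.5%, 49.997%, 49.9%, 50.4%, 49.4%, 50.6% and 49.9%. The ranges of the 3 chains did not overlap.

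Col6a2 had a log2 fold change of 0.42 (edgeR, FDR 0.0258) and a mean log2 ratio of 0.40 ± 0.027 (SD, n = 7, exact sign-flip test, p = 0.0156, 95% interval 0.38 to 0.42). Col6a1 had a log2 fold change of 0.29 (edgeR, FDR 0.112) and a mean log2 ratio of 0.27 ± 0.032 (SD, n = 7, exact sign-flip test, p = 0.0156, 95% interval 0.25 to 0.31). The edgeR call of Col6a1 without the block was lost without mouse 2 (FDR 0.213) or mouse 5 (FDR 0.206), while the log2 fold change stayed at 0.29 and 0.28. Col6a3, with 30039 to 93393 counts per mouse, had a mean log2 ratio of -0.0015 ± 0.025 (SD, n = 7, exact sign-flip test, p = 0.797, 95% interval -0.03 to 0.02). Its log2 fold change was 0.02 (edgeR, FDR 0.995, and 0.195 with the mouse as a block), and it took the other sign, -0.0015, with a single library size for both alleles of a mouse, so no direction is given for Col6a3.

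Within mice, the log2 CAST to B6 ratio of Col6a2 was above that of Col6a3 by 0.40 ± 0.020 (SD, n = 7) and that of Col6a1 above Col6a3 by 0.28 ± 0.045 (SD, n = 7), each in 7 of 7 mice. Between the chromosome 10 neighbors the gap was smaller, with Col6a1 minus Col6a2 at -0.12 ± 0.038 (SD, n = 7) and below 0 in every mouse. Each of these differences had p = 0.0156 in the exact sign-flip test and 0.0188 adjusted over 6 pairs.

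Of the 6 pairs compared, the FACIT genes had the largest difference in allele ratio. Col14a1 (ENSMUSG00000022371, plus strand of chromosome 15, 55307750 to 55520803) encodes collagen XIV, which binds fibrils of tendon, skin and other dense tissues. Its CAST share was 58.8%, 59.0%, 61.1%, 57.9%, 56.8%, 58.0% and 57.5% in mice 1, 2, 3, 4, 5, 7 and 8, the highest mean share of the 9 genes at 58.4% ± 1.39 (SD, n = 7). Mouse 3 stood highest, with 3343 CAST and 2131 B6 counts. Mouse 7, with the fewest counts, had 1332 CAST and 965 B6 counts, and its share of 58.0% had a 95% Wilson interval of 55.96% to 59.99%. This interval takes every estimated count as a separate read, so it covers at most counting error and may be too narrow. Col12a1 (ENSMUSG00000032332, minus strand of chromosome 9, 79598991 to 79718831) encodes collagen XII, a FACIT of tendon, ligament and bone surfaces. Its CAST share was 48.4%, 49.9%, 49.8%, 50.1%, 49.5%, 49.4% and 48.5%, under 50% in all mice but mouse 4.

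For Col14a1 the log2 fold change was 0.52 (edgeR, FDR 1.66e-06), and the mean log2 ratio was 0.49 ± 0.083 (SD, n = 7, exact sign-flip test, p = 0.0156, 95% interval 0.43 to 0.58). Col12a1 was not called, with a log2 fold change of -0.01 (edgeR, FDR 1), and its mean log2 ratio was -0.04 ± 0.040 (SD, n = 7, exact sign-flip test, p = 0.0469). The log2 ratio of Col12a1 minus that of Col14a1 was -0.53 ± 0.083 (SD, n = 7), below 0 in 7 of 7 mice (exact sign-flip test, p = 0.0156, adjusted over 6 pairs 0.0188).

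Both multiplexin genes yielded more RNA from the B6 allele in all 7 mice, the opposite direction to Col4a1, Col6a1, Col6a2 and Col14a1. Col15a1 (ENSMUSG00000028339) lies on the plus strand of chromosome 4 at 47208161 to 47313167. In mice 1, 2, 3, 4, 5, 7 and 8 its CAST share was 46.2%, 46.7%, 49.2%, 48.3%, 47.1%, 45.5% and 45.8%. Col18a1 (ENSMUSG00000001435) lies on the minus strand of chromosome 10 at 77052178 to 77166548, 326009 bases from Col6a1. Its CAST share was 43.6%, 44.1%, 43.9%, 46.2%, 45.6%, 46.6% and 47.2%, so that Col18a1 had B6 higher and its neighbors Col6a1 and Col6a2 had CAST higher in the same mice.

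In the fit without the block neither multiplexin gene was called, and with it both were. Without the block Col18a1 lay near the threshold and was called with a single library size per mouse (edgeR, FDR 0.145), with column totals (0.197) or without mouse 7 (0.188). Col15a1 had a log2 fold change of -0.15 (edgeR, FDR 0.489). With the mouse as a block its FDR was 2.97e-06 by the likelihood-ratio test and 0.00634 by the quasi-likelihood test. Its mean log2 ratio was -0.17 ± 0.079 (SD, n = 7, exact sign-flip test, p = 0.0156, 95% interval -0.25 to -0.10). Col18a1 had a log2 fold change of -0.26 (edgeR, FDR 0.213). With the block its FDR was 7.90e-15 by the likelihood-ratio test and 0.000723 by the quasi-likelihood test. Its mean log2 ratio was -0.27 ± 0.085 (SD, n = 7, exact sign-flip test, p = 0.0156, 95% interval -0.36 to -0.19). The ratios of the pair differed by 0.10 ± 0.136 (SD, n = 7), higher for Col15a1 in 5 of 7 mice, with an interval of -0.06 to 0.23 (exact sign-flip test, p = 0.109). The interval holds 0 as well as differences of up to 0.23. Col18a1 had the fewest counts of the 9 genes, 1166 to 3836 per mouse. The gene Slc19a1 overlaps Col18a1 by 8825 bases on the opposite strand and averaged 479 counts, and whether the counting used strand is not stated. In mouse 5 the total of Col18a1 was not a whole number, so some reads there were divided between genes. Apart from this overlap and that of the type IV pair, counted genes that overlap the 9 collagen genes averaged at most 49.4 counts per mouse.

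**Figure D2:**
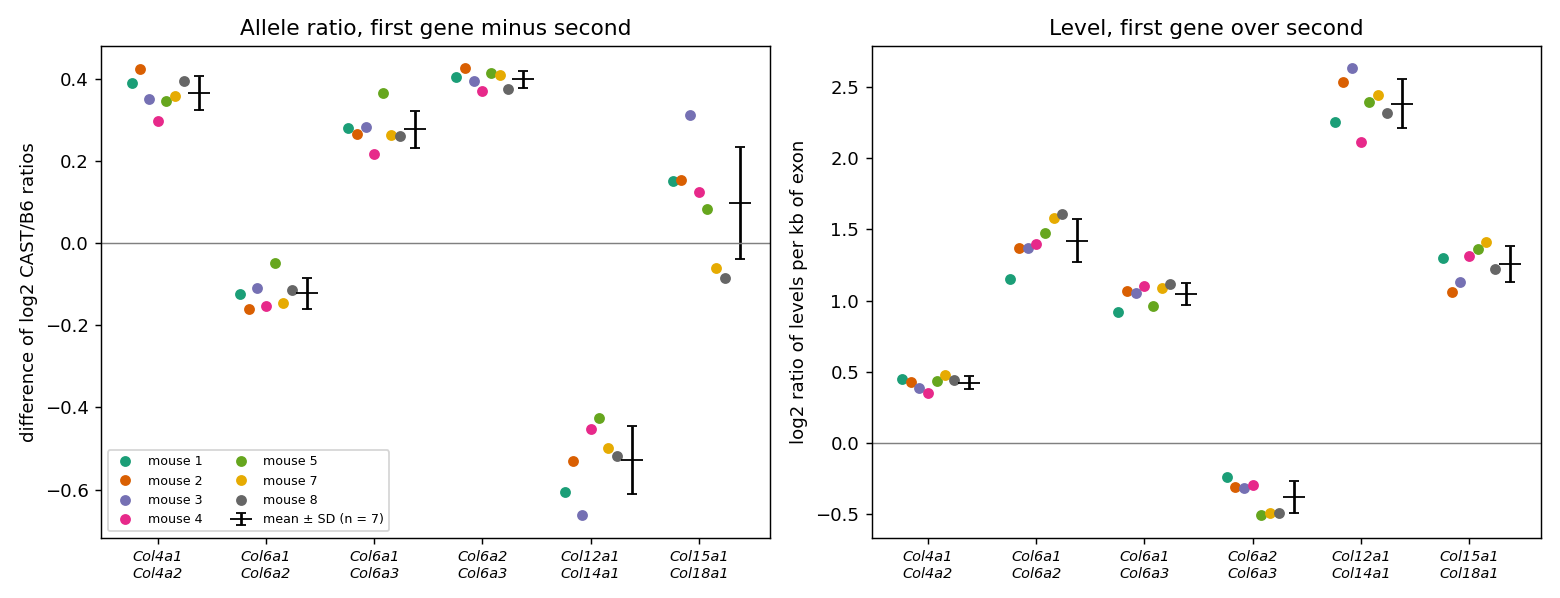
For 6 pairs of genes of the same collagen type or class, of which only the type IV and type VI pairs assemble together, the left panel plots the difference of their log2 CAST to B6 ratios and the right panel the log2 ratio of their levels per kb of exon, with a point for each mouse and the mean ± SD in black. Every pair but Col15a1 with Col18a1 stays on a single side of 0 in the left panel, and in the right panel every pair does.

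Levels between genes were compared per exon length, as CPM per kb of merged exons of GENCODE release M21. Type VI genes stood highest. Col6a1 had 431 ± 57.2 CPM per kb (SD, n = 7), Col6a3 had 209 ± 24.8 and Col6a2 had 162 ± 28.2. Col12a1 followed with 136 ± 22.5, then Col4a1 with 127 ± 17.7 and Col4a2 with 95.03 ± 14.4. The lowest were Col15a1 with 36.7 ± 5.51, Col14a1 with 25.9 ± 2.57 and Col18a1 with 15.5 ± 2.95. Among the 44 collagen chain genes Col6a1 ranked 10 and Col18a1 ranked 26, while Col1a1, the main chain of bone collagen, ranked 1 and Col2a1, the chain of cartilage fibrils, ranked 2.

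Neighbors in this order were compared within mice. The pairs and their direction were set by the mean levels of the same mice, so the p-values below reflect agreement between mice only. The higher gene was higher in 7 of 7 mice for every neighboring pair except Col12a1 and Col4a1 (exact sign-flip test, p = 0.0156, adjusted over 8 pairs 0.0179). Of these, Col6a2 over Col12a1 varied widely, with a mean log2 ratio of 0.25 ± 0.283 (SD, n = 7) and a lowest value of 0.0053. Col12a1 was above Col4a1 in 5 of 7 mice, and their difference was within the spread of the 7 mice (p = 0.25 by the exact sign-flip test). The order of Col6a2 and Col6a3 rests on the length used, since the merged exons of Col6a2 span 8326 bases and its longest transcript 4912. With the longest transcript Col6a2 had 274 and Col6a3 had 247 CPM per kb, and Col6a2 was then the higher in all 7 mice.

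**Figure D3:**
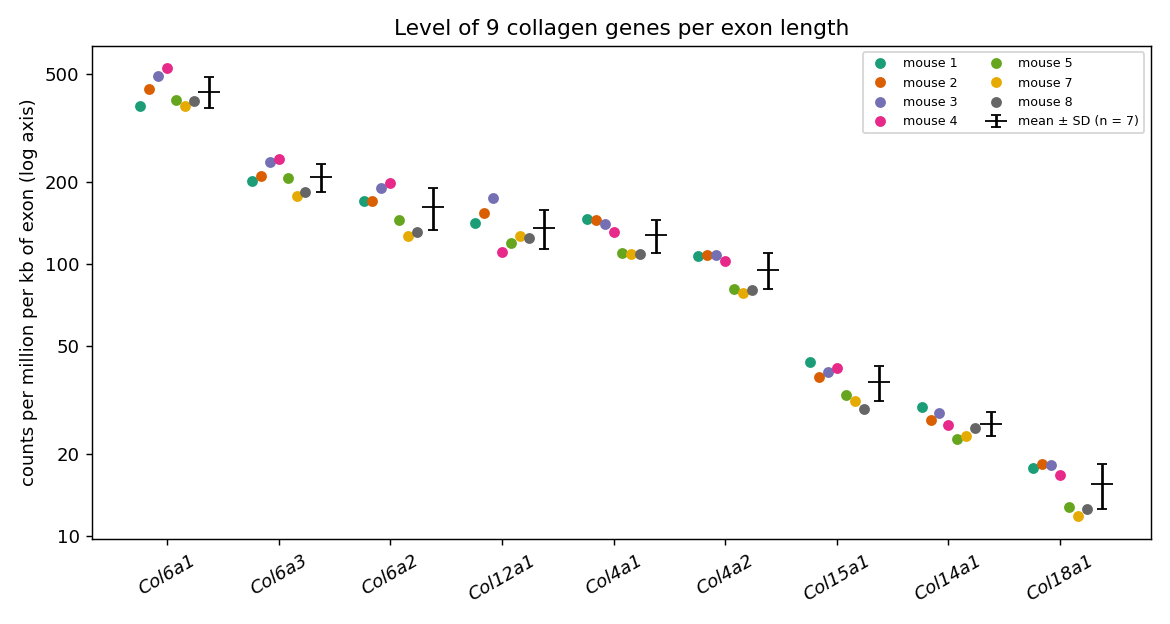
The level of each gene, in CPM per kb of merged exon on a log axis, is plotted for the 7 mice as colored points with the mean ± SD in black. Type VI genes lie on top, from 127 to 524, and Col18a1 lies at the bottom, from 11.8 to 18.4.

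Of the 6 pairs, type IV collagen had the smallest spread of the chain level ratio between mice. Col4a1 was 1.34-fold Col4a2 per kb, with a range of 1.28 to 1.39 over mice, and 1.48-fold by the longest transcripts. Col6a1 was 2.68-fold Col6a2 (2.22 to 3.05 over mice) and 2.06-fold Col6a3 (1.89 to 2.17). By the longest transcripts these were 1.69 and 1.86. Col12a1 was 5.21-fold Col14a1 (4.32 to 6.19), and Col15a1 was 2.39-fold Col18a1 (2.09 to 2.67). All 6 ratios were on the same side of 1 in all 7 mice (exact sign-flip test, p = 0.0156, also after adjustment over 6 pairs).

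Between mice the levels moved by less than 2-fold, and 6 of the 9 genes were lowest in the same 3 mice. Col4a1 had 1092, 1087, 1051, 977, 817, 815 and 812 CPM in mice 1, 2, 3, 4, 5, 7 and 8, and Col4a2 had 708, 716, 715, 679, 537, 519 and 529. Col18a1 had 125, 129, 128, 117, 89.7, 82.7 and 88.1 CPM. Col15a1 had 277, 244, 253, 263, 209, 199 and 186 CPM. In these 4 genes, and in Col6a2 (1057 to 1207 against 1417 to 1655 CPM) and Col14a1 (159 to 175 against 179 to 209 CPM), mice 5, 7 and 8 lay below mice 1 to 4 without overlap. For Col14a1 the gap was narrow and depends on the total used. The RNAs Rn7s1, Rn7s2 and Rn7sk held 18.5% of counts in mouse 2 and 23.8% in mouse 8. With them left out of the totals, the sets of Col14a1 overlap. The sets of mice were drawn from these same values, and how many of all genes split the mice in this way was not counted. Nothing particular to these collagens is therefore read from the split. The summed laminins, nidogens, perlecan and agrin split the mice likewise, at 4284 to 4725 against 3109.5 to 3723 CPM. The labels name no batch that separates mice 5, 7 and 8 from mice 1 to 4.

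Osteoblast markers summed to 64301, 65390, 54070, 46370, 40480, 36036 and 37666 CPM in the same order of mice, a sum made up mostly of Col1a1 (mean 46555 CPM). Within the list, Col1a1 and Sp7 were lowest in mice 5, 7 and 8 without overlap, Bglap and Bglap2 were highest in those mice without overlap, and Ibsp and Dmp1 did not separate the mice. Erythroid markers ran the other way, with 4895, 3985, 3899, 4958, 9417, 8666 and 6541 CPM. Endothelial markers, from cells that rest on a basement membrane, gave 461, 398, 444, 345, 377, 383 and 329 CPM and did not separate the mice in this way. All genes of these lists, 6 of 6, 5 of 5 and 8 of 8, were above 0 in every mouse. Their part in the levels of the collagens was not tested. Because the mice fell into separate sets for these genes, no correlation test is given for any compared chain pair that holds one of them. Their r with other genes appears below only as a ranking.

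Type VI genes were highest in mouse 4 for all 3 chains. Col6a1 had 1662, 1926, 2153, 2296, 1763, 1662 and 1746 CPM, Col6a2 had 1421, 1417, 1585, 1655, 1207, 1057 and 1090, and Col6a3 had 2405, 2517, 2840, 2917, 2467, 2131 and 2196. The summed chondrocyte markers were also highest in mouse 4, at 91491 CPM, and lowest in mouse 8, at 54945 CPM, with most of the sum from Col2a1 (71280 and 38278 CPM). Of the 8 markers, Col2a1, Acan and Comp were highest in mouse 4, Ucma and Matn1 in mouse 8, Hapln1 and Col11a1 in mouse 5 and Sox9 in mouse 1. Their part in the type VI levels was not tested.

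The correlation of log2 CPM over the 7 mice was computed for 6 pairs of chains, and it is given only for Col6a1 and Col6a3, the pair in which neither gene split the mice into these sets. Pearson's r was 0.913 (exact permutation p = 0.00496, adjusted over 6 pairs 0.00992) and Spearman's rho 0.964 (exact permutation p = 0.00278, adjusted 0.0167). Without the 2 mice farthest from the median r was 0.617. Col12a1 was lowest in mouse 4, at 1680 CPM, and highest in mouse 3, at 2666 CPM, unlike Col14a1, which was lowest in mouse 5, at 159 CPM.

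**Figure D4:**
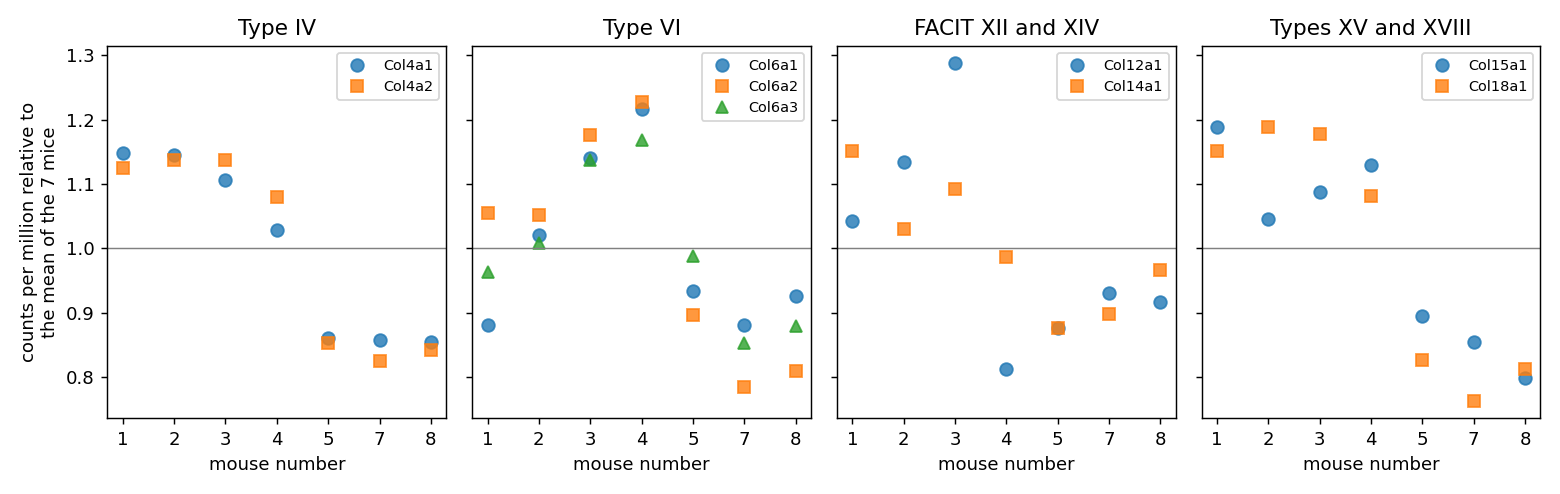
CPM relative to the mean of the 7 mice are plotted by mouse number for type IV, type VI, FACIT and multiplexin genes, with a symbol for each gene. Type IV and multiplexin genes lie above 1 in mice 1 to 4 and below 1 in mice 5, 7 and 8. Type VI genes peak in mouse 4 and also lie below 1 in mice 5, 7 and 8, with Col6a1 and Col6a3 below 1 in mouse 1 as well.

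The genes most like each member over mice were ranked by Pearson's r of log2 CPM over 7 mice, among 11762 other genes, as a description without a test. For the genes that split the mice, r also holds the step between the sets named above. A high r is therefore not read as joint variation within the sets. Col4a2 and Col18a1, which both split the mice, ranked first for each other, with an r of 0.997. Lamb2, the laminin β2 chain of vascular and muscle basement membranes, came next for both (0.995 and 0.997). The closest to Col4a1 were Col5a1, a chain of fibrillar collagen V (0.990), and Hbegf, a growth factor of the EGF family (0.989). Col6a1 was closest to Slc27a3 (0.988) and P4ha2, a prolyl hydroxylase subunit that modifies collagen chains (0.988). Among the genes close to Col6a2 was Phospho1, a phosphatase of skeletal mineralization (0.975). The closest to Col6a3 were Adamts1, a protease that cleaves proteoglycans (0.989), and Ngef (0.987). Col12a1 was closest to Zbtb10 (0.993) and Fam167a (0.984), Col14a1 to Osbpl10 (0.995) and Gpr162 (0.988), and Col15a1 to Ahdc1 (0.980) and Pak4 (0.976).

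The other type IV and type VI chains were scarce, at ranks of 30 or below among the 44 collagen chains, while Col9a1, Col9a2 and Col9a3, FACIT chains of cartilage, ranked 9, 6 and 8, above all 9 genes described here. Of the 4 other type IV chains, Col4a4 had 81.3 CAST and 56.4 B6 counts per mouse, a log2 fold change of 0.55 (edgeR, FDR 0.00664). Col4a5 and Col4a6 are X-linked, so these males carry a single copy, and 423 of the Col4a5 counts per mouse fell on the B6 allele against 2.92 on CAST. The fourth, Col4a3, was not called. Of the 3 other type VI chains, Col6a5 had B6 higher, with a log2 fold change of -0.68 (edgeR, FDR 0.00384), and Col6a4, named after its values were seen, was called on 0.904 CAST and 2.67 B6 counts per mouse. Of the 7 other FACIT chains tested, 1 was called with CAST higher, Col19a1 on 15.9 CAST and 3.20 B6 counts per mouse, and 1 with B6 higher, Col20a1, also named after its values were seen, with 17.0 CAST and 25.8 B6 counts. Across all 44 collagen chain genes 17 were called, 11 with CAST higher and 6 with B6 higher. With the mouse as a block 37 of the 44 were called, and all 7 of the other FACIT chains, beside shares over all tested genes of 34.6% without and 45.5% with the block.

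The partners of type IV collagen in the basement membrane went in both directions. Of 15 laminins, nidogens, perlecan and agrin, 5 had CAST higher, 2 had B6 higher and 8 were not called, beside 34.6% of all tested genes called, and the median log2 fold change of the list was 0.09, beside 0.02 over all tested genes. CAST was higher for Agrn, the proteoglycan agrin (log2 fold change 0.78, edgeR, FDR 2.23e-08), for Lama1 (1.44, on 87.1 CAST and 30.9 B6 counts per mouse), and for Lama2, Lama4 and Lamc1 (0.22, 0.26 and 0.29). B6 was higher for Nid1, the nidogen that links laminin to type IV collagen (-0.38, edgeR, FDR 0.000255), and for Lamb1, the laminin β1 chain (-0.25). Each of these 7 genes had the same direction in all 7 mice, and with the mouse as a block 11 of the 15 were called, beside 45.5% of all tested genes.

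Of 7 genes that modify, fold or cross-link basement membrane collagen, 4 were called, beside 34.6% of all tested genes. CAST was higher for P3h2, a prolyl 3-hydroxylase that acts on type IV chains (0.43, edgeR, FDR 0.00430), and for Sparc, a collagen-binding glycoprotein (0.17, edgeR, FDR 0.168). B6 was higher for Loxl2, a lysyl oxidase that cross-links type IV collagen (-0.44, edgeR, FDR 0.00106), and for Colgalt1, a galactosyltransferase of collagen hydroxylysine (-0.31, edgeR, FDR 0.00621). With the mouse as a block all 7 were called, beside 45.5% of all tested genes. Of 8 binding partners of type VI and FACIT collagens, 3 were called, all with B6 higher, beside the same 34.6%. These were Dcn, the proteoglycan decorin (-0.49, edgeR, FDR 0.000306), Tnc, tenascin-C (-0.41, edgeR, FDR 0.0144), and the X-linked Bgn, biglycan, of which these males carry a single copy. With the block 6 of the 8 were called, beside the 45.5%.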

How the data were processed

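The authors aligned reads of rRNA-depleted, stranded total RNA libraries to B6 and CAST transcripts together (mm10) by Bowtie with up to 3 mismatches, and EMASE produced the deposited estimated counts (expected counts) per gene and allele. These are not normalized, and a read matching both alleles, or more than 1 gene, is shared out between them. SAMtools is also named in the submitters' processing notes. Versions are not given in the sources used here.

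Gene names, coordinates and exon lengths came from GENCODE release M21, which holds 42462 of 43346 identifiers (98.0%). A gene was tested if, in each mouse, either allele had a nonzero count, with values up to 1e-09 taken as 0. Counts were rounded and compared with edgeR 4.0.16 under R 4.3.3 with limma 3.58.1, by TMM, estimateDisp, glmFit and glmLRT, with FDR adjusted over all tested genes. Alternatives included the quasi-likelihood test, DESeq2 1.42.0, other filters and library sizes, and each mouse left out. Summaries used Python 3.11.15 and scipy 1.17.1. The fit was tested on simulated counts.

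Both alleles come from the same animal, which is the source of the pairing. Over 15111 genes, allele deviations correlated on average at 0.059 within mice and -0.010 between mice. The ranges overlapped, with a lowest value of -0.055 within mice and a highest of 0.172 between mice. No library was a repeat of another (21 pairs of mice, chi-square divided by its degrees of freedom 12.1 to 77.7).

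The members and gene lists were chosen with earlier results of these data known. Named genes were the 9 members, list genes called with the same direction in all 7 mice, and the 2 protein-coding genes most like each member among those with a mean total of at least 100 counts, of which 1 for Col6a2 is not reported here. Genes of marker lists are named only where they define a sum, and Col4a3, Col6a4, Col20a1, the type IX chains and Slc19a1 were named outside this rule. RefSeq promoter windows matched 7 of 9 members. Col21a1 was not found by symbol and was not analysed here. Intervals for shares take every estimated count as a separate read, so they cover at most counting error and may be too narrow.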

Additional observations from a re-analysis of the deposited data

How the results depend on the processing

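In 499 comparisons of a result with its value under an alternative, 5 changed sign, 15 fell short of and 14 newly passed their threshold, and 17 levels or counts moved by more than the spread between mice (counts by over 1.5 times). With the mouse as a replicate block, which pairs the alleles of each animal, 7 of 9 genes were called by the likelihood-ratio and 7 by the quasi-likelihood test, and 8 with the block and a single library size per mouse (added after seeing the data). The log2 fold changes under these 3 were -0.15, -0.15 and -0.17 for Col15a1 and -0.26, -0.26 and -0.28 for Col18a1. For Col6a3 they were 0.017, 0.018 and, with the sign turned, -0.0028. With the block and a single library size Col4a2 (-0.044, FDR 0.0299) and Col12a1 (-0.037, FDR 0.0570) were also called, and Col6a3 was not (FDR 0.925). The block changed no other call of the 9 genes. A single library size without the block gave Col18a1 -0.28 (FDR 0.145) and Col6a3 -0.0015, with the sign turned, and column totals without TMM gave Col18a1 -0.26 (FDR 0.197). At an FDR under 0.05 Col6a1 (0.29, FDR 0.112) was not called, and 4789 of all genes were called in place of 6999. Scaled by autosomal totals, the mean log2 ratio was -0.031 for Col6a3, -0.076 for Col4a2 and -0.066 for Col12a1 (exact sign-flip permutation test, p = 0.0156 for each).

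Leaving out each mouse in turn gave 3 to 5 called genes. Col6a1 ran from 0.28 to 0.30 (FDR 0.0508 to 0.213) and Col18a1 from -0.28 to -0.25, called only without mouse 7 (FDR 0.188). Mean log2 ratios ran from -0.058 to -0.038 for Col4a2, from -0.044 to -0.027 for Col12a1 and from -0.0075 to 0.0036 for Col6a3, with the sign turned without mouse 1 (0.0027) or mouse 5 (0.0036). With 6 mice the exact p for Col4a2 and Col12a1 reached 0.0938.

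With the longest transcript as length, the log2 level ratio of Col6a2 over Col6a3 turned to 0.14, and levels were 274 (Col6a2), 247 (Col6a3), 180 (Col12a1), 45.1 (Col15a1) and 19.4 (Col18a1) CPM per kb. Without Rn7s1, Rn7s2 and Rn7sk, which held 15.5% to 23.8% of counts, levels were 159 (Col4a1), 119 (Col4a2), 540 (Col6a1), 202 (Col6a2), 261 (Col6a3), 170 (Col12a1), 32.3 (Col14a1), 45.8 (Col15a1) and 19.3 (Col18a1) CPM per kb. The cause of these changes was not tested, other than where a length or a total was itself replaced. Depth limits Col18a1 most, with 1166 counts in mouse 7.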
